A study of Mus musculus with 12 samples.

Results

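The circadian clock of the mouse lung was described through 10 genes of the core loop and its output, taken by name from a table of 23127 genes. They are Arntl (also called Bmal1), Npas2, Nr1d1, Nr1d2, Per2, Per3, Ciart, Bhlhe40, Dbp and Tef, and each was present as 1 row. All 10 passed the filter on low values, as did 15562 genes in all. Whole-lung RNA came from 12 mice labelled C57BL6/J, 4 in each of 3 groups. The controls were taken at 0 weeks, and the other groups received L-NAME, a nitric oxide synthase inhibitor, at 0.5 g/L in the water together with a diet of 60% lipid for 2 or 5 weeks, a regimen used to model heart failure with preserved ejection fraction. L-NAME and the diet were always given together and the only untreated mice were those at 0 weeks, so either agent and time on study cannot be told apart. The sources used here do not give age, sex, the light cycle or the hour of sacrifice.

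The clock is a transcription loop that runs in nearly every cell. BMAL1, the product of Arntl, pairs with CLOCK or its relative NPAS2 and activates genes through E-box elements, among them the Per, Cry, Nr1d, Bhlhe40, Ciart, Dbp and Tef genes, several of whose products then repress BMAL1 or its gene. REV-ERBα and REV-ERBβ, from Nr1d1 and Nr1d2, repress Arntl through ROR elements, and DBP and TEF act on D-box elements of output genes. In mice kept in a light-dark cycle, the RNA of Arntl and Npas2 peaks at about the time of day when that of Nr1d1 and Dbp is low, so the hour at which a lung is taken sets much of the level of these genes.

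The elements of this loop can be read in the promoters of some members. RefSeq promoters on GRCm38.p6, from 250 bases before to 50 bases after a start, were on hand for 8 of the 10 genes in 10 windows, with none for Per2 and Bhlhe40. Both strands were searched for the E-box CACGTG, the D-boxes TTATGTAA and TTACGTAA, and the ROR element cores TAGGTCA and TGGGTCA. Ciart held 3 E-boxes, beginning 116, 58 and 44 bases before the start, and each of the 2 Tef windows held 1, beginning 127 and 138 bases before its start. Of all 32851 windows, 7.15% held an E-box. Per3 held the D-box TTATGTAA at 2 places, beginning 205 and 158 bases before the start, against a share of 0.938% of all windows. One of 2 Arntl windows held TAGGTCA beginning 30 bases after the start, against a share of 2.61%. No member window held TTACGTAA (0.119% of all windows) or TGGGTCA (3.98%). The windows of Dbp, Nr1d1, Nr1d2 and Npas2 held none of the motifs searched. No match overlapped another. The 250 bases before these starts are shown because they carry these elements, which are in capitals. For Arntl 30 bases around the match are shown.
Ciart, chr3:95882229-95882478, minus strand: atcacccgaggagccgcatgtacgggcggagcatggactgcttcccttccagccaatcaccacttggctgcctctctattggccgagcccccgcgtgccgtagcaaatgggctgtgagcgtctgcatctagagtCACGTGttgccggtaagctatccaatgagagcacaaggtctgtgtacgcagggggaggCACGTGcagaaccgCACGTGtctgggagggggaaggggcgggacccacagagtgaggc
Tef, first window, chr15:81802423-81802672, plus strand: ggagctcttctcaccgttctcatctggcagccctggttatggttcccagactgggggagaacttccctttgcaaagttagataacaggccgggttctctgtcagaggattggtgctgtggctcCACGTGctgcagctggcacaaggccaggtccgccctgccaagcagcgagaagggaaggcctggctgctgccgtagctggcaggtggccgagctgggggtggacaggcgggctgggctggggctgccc
Tef, second window, chr15:81811164-81811413, plus strand: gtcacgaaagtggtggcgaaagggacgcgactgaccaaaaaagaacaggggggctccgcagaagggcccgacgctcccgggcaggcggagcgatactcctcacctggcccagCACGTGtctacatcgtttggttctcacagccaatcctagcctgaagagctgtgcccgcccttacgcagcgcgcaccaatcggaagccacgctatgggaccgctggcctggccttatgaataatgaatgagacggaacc
Per3, chr4:151044666-151044915, minus strand: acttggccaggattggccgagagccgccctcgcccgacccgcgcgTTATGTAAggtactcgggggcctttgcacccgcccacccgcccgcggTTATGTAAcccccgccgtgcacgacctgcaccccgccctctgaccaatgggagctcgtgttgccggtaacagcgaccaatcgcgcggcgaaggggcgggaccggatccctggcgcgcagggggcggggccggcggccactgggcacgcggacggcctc
Arntl, chr7:113207529-113207558, plus strand: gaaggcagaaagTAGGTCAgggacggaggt
These matches describe letters in the windows and are neither evidence of binding nor a cause of any level given here.

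The libraries held 25900000 to 34000000 reads assigned to genes, as read from the step between low values. The 9 markers of lung cells were all present and summed to 37871 to 52246 CPM (read counts scaled to a common library total) per library. Markers of blood, fat or skeletal muscle were high in single libraries. Red cell markers (3 genes) summed to 11218 CPM in 5-week replicate 3 and to 694 to 2958 CPM in the others. Adipocyte markers summed to 506 CPM in control replicate 2, and skeletal muscle markers to 6509.5 CPM in 2-week replicate 3. Markers of the thymus stayed at or below 0.884 CPM. Cardiac muscle markers (4 genes) were present in every library, and their source was not tested. They summed to 1397 CPM in 2-week replicate 2 and to 294 to 789 CPM in the others. Control replicate 2, 2-week replicate 3 and 5-week replicate 3 were the libraries left out as standing apart. Replicate numbers only name a mouse and pair nothing.

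Positions of the members are given as the deposited table places them, in a build it does not name and whose starts differ from GRCm38. The activator Arntl (ENSMUSG00000055116) lies on chromosome 7 at 112806672 to 112913333, and Npas2 (ENSMUSG00000026077) on chromosome 1 at 39232812 to 39402317. The repressors are Nr1d1 (ENSMUSG00000020889, chromosome 11, 98658758 to 98666159), Nr1d2 (ENSMUSG00000021775, chromosome 14, 4230569 to 4265642), Per2 (ENSMUSG00000055866, chromosome 1, 91343704 to 91387046), Per3 (ENSMUSG00000028957, chromosome 4, 151088109 to 151129122), Ciart (ENSMUSG00000038550, chromosome 3, 95785815 to 95789563) and Bhlhe40 (ENSMUSG00000030103, chromosome 6, 108637590 to 108643886). The output genes are Dbp (ENSMUSG00000059824, chromosome 7, 45354512 to 45359627) and Tef (ENSMUSG00000022389, chromosome 15, 81686622 to 81711064). Nr1d1 overlaps the opposite-strand thyroid hormone receptor gene Thra (mean 106 CPM) by 1075 bases, and Dbp overlaps Sphk2 (45.1 CPM) by 737 bases. Ciart lies wholly within the antisense C920021L13Rik (3.93 CPM) and Per3 wholly within Camta1 on the same strand (15.6 CPM), and Tef overlaps Gm17597 (0.203 CPM). These overlaps are of whole gene spans, and the overlap of exons was not computed. The sources used here do not say whether the counting used strand, so how many reads such pairs share is not known.

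The output genes and the REV-ERB genes were abundant in these lungs, and Arntl and Npas2, the activators among the members, were scarce. Per kilobase of exon, Dbp had the highest level, with a mean of 115 CPM per kb over the 12 libraries, followed by Nr1d1 with 91.5, Tef with 64.6 and Nr1d2 with 42.3 CPM per kb. Bhlhe40 (22.9 CPM per kb), Per2 (18.9), Per3 (11.4) and Ciart (9.07) followed. Arntl had 0.255 and Npas2 0.221 CPM per kb. The ranges over the 12 libraries did not overlap between Tef and Nr1d2, between Nr1d2 and Bhlhe40, or between Ciart and Arntl, the widest step at 35.6-fold. All other neighbours in this order overlapped in range. Within single libraries the order held in all 12 for 6 of the 9 neighbouring pairs. Bhlhe40 stood above Per2 in 11 of 12 libraries, Per3 above Ciart in 11, and Arntl above Npas2 in 8.

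**Figure D1:**
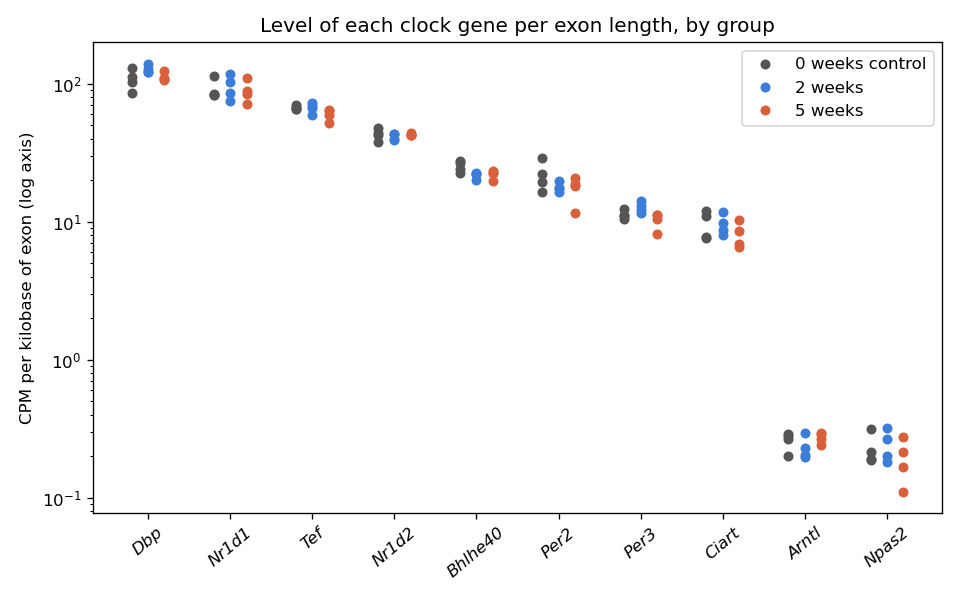
Level of each clock gene in CPM per kilobase of exon on a log axis, 1 point per mouse, coloured by group. Arntl and Npas2 lie far below the other 8 genes in every group, and the 3 groups overlap for most genes.

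Among the activators, Arntl stood at 1.51, 2.02, 2.19 and 2.11 CPM in controls 1 to 4, at 1.53, 1.48, 2.21 and 1.73 CPM after 2 weeks, and at 2.19, 2.01, 2.22 and 1.82 CPM after 5 weeks. Control 1 and 2-week libraries 1 and 2 were low, and the groups overlapped. The log2 differences were -0.11 (95% interval -0.40 to 0.17) at 2 weeks and 0.05 (-0.23 to 0.34) at 5 weeks against the controls. Npas2, the relative of Clock, stood at 0.918, 1.03, 0.907 and 1.51 CPM in the controls. It stood at 1.53, 1.28, 0.960 and 0.863 CPM after 2 weeks and at 0.807, 1.33, 1.03 and 0.527 CPM after 5 weeks. Each group held both high and low libraries, and this gene had the largest ratio of the highest to the lowest library among the members, 2.89. Both genes are near the filter of 1 CPM, and the log2(CPM + 1) scale understates their differences.

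The REV-ERB genes differed from each other in spread. Nr1d1 stood at 351, 256, 254 and 259 CPM in the controls, at 314, 359, 232 and 265 CPM after 2 weeks, and at 337, 259, 218 and 274 CPM after 5 weeks. Each group held 1 or 2 libraries above 300 CPM, 4 in all, and the group means of 280.1 ± 47.6, 292 ± 56.0 and 272 ± 49.6 CPM (SD, n = 4) lay within 1 SD of each other. Nr1d2 stood at 238, 205, 228 and 258 CPM in the controls, at 212, 234, 215 and 233 CPM after 2 weeks, and at 228, 231, 236 and 228 CPM after 5 weeks. It was the steadiest member, with a pooled within-group SD of 0.0916 on the log2 scale, against 0.255 for Nr1d1. The 5-week libraries of Nr1d2 all fell inside the range of the controls.

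Per2, a repressor of the BMAL1 complex that also responds to glucocorticoids, had a pooled within-group SD of 0.297 on the log2(CPM + 1) scale, the widest of the members on that scale, which compresses Npas2. As a coefficient of variation in CPM, Npas2 was the more variable in every group (26.3%, 26.3% and 36.8%, against 24.1%, 7.79% and 23.2% for Per2). It stood at 96.3, 114, 131 and 168 CPM in the controls, at 95.5, 103, 115 and 103 CPM after 2 weeks, and at 106, 122, 67.4 and 109.5 CPM after 5 weeks. Control replicate 4 was the highest and 5-week replicate 3 the lowest, with the groups overlapping. The log2 difference of 5 weeks from the controls was -0.33 (95% interval -0.72 to 0.06, limma adjusted p = 0.632). It was -0.15 without 5-week replicate 3, -0.19 without control replicate 4 and -0.09 with library weights, and -0.46 without control replicate 1.

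Per3, the third Period gene, stood at 101, 107, 118 and 107 CPM in the controls, at 116, 125, 137 and 111 CPM after 2 weeks, and at 101, 107, 78.1 and 107 CPM after 5 weeks. Every 5-week library lay below every 2-week library, while the controls overlapped both groups. Ciart, also known as Chrono, a repressor of the BMAL1 complex, stood at 24.9, 17.3, 26.9 and 17.4 CPM in the controls. It stood at 22.0, 26.8, 19.6 and 18.1 CPM after 2 weeks and at 23.3, 15.7, 14.8 and 19.4 CPM after 5 weeks. Each group was spread widely and the groups overlapped, with a pooled SD of 0.282 on the log2 scale.

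Bhlhe40 encodes DEC1, an E-box repressor that also responds to hypoxia and immune signals. It stood at 124.5, 106.7, 112.5 and 130.0 CPM in the controls, at 93.7, 103.7, 106.1 and 103.8 CPM after 2 weeks, and at 105.1, 109.1, 92.3 and 105.2 CPM after 5 weeks. Every 2-week library lay below every control, the nearest pair differing by less than 1 CPM. After 5 weeks 3 libraries lay below every control as well, and replicate 2 did not.

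The output gene Dbp stood at 386, 335, 307 and 255 CPM in the controls, at 365, 417, 384 and 364 CPM after 2 weeks, and at 367, 324, 327 and 317 CPM after 5 weeks. The controls covered nearly the whole range, from the lowest library of all to one above 3 of the 2-week libraries. Tef stood at 531, 516.4, 552 and 515.9 CPM in the controls, at 568, 524, 544 and 465 CPM after 2 weeks, and at 500.1, 507.5, 411 and 466 CPM after 5 weeks. Every 5-week library of Tef lay below every control, and 2-week replicate 4 was lower than 3 of the 5-week libraries. Both genes encode PAR-domain basic leucine zipper factors.

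**Figure D2:**
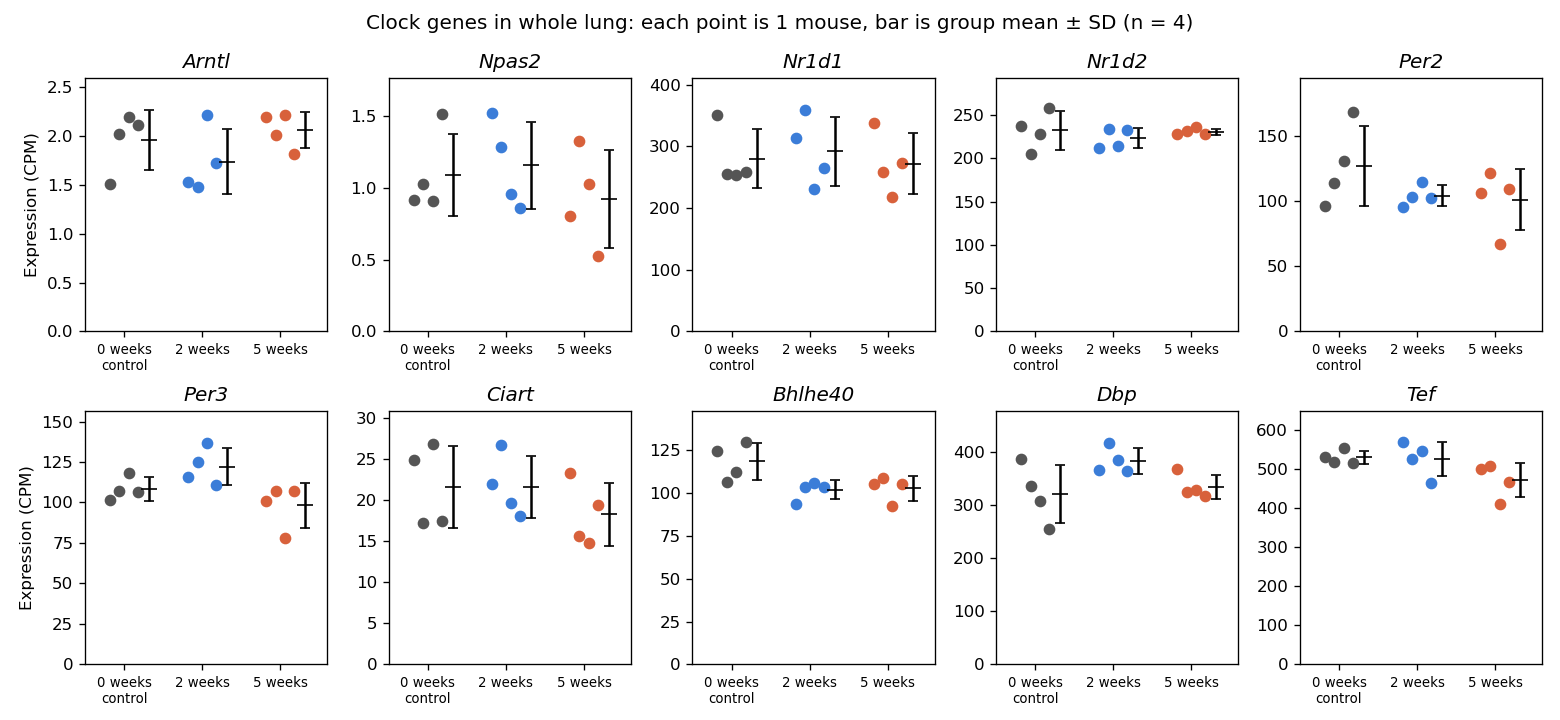
Expression in CPM of each of the 10 clock genes (linear axes from 0), 1 point per mouse in replicate order from left to right, with the group mean ± SD (n = 4) as a black bar. Bhlhe40 at 2 weeks lies wholly below the controls, Per3 at 5 weeks wholly below 2 weeks and Tef at 5 weeks wholly below the controls, while the other genes overlap between groups.

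The comparison of 2 weeks with the controls asks about the early response. None of the 10 members passed in limma at an adjusted p under 0.05, and neither did any of the 15562 genes tested (0.00%). At an unadjusted p under 0.05 there were 2 members, against 9.24% of all genes. Bhlhe40 had a log2 difference of -0.21 ± 0.08 (SE, 0.863-fold, limma adjusted p = 0.44). Dbp had 0.27 ± 0.11 (1.20-fold, limma adjusted p = 0.485). The Dbp difference was 0.16 without control replicate 4, the lowest Dbp library, and 0.36 without control replicate 1, the highest control. Among the members 5 stood higher and 5 lower, where 55.1% of all genes stood higher and 44.9% lower, and the median log2 difference was 0 against 0.019 over all genes. Bhlhe40 was the 1 member whose groups did not overlap (5.32% of all genes), its 2-week libraries all below the controls (1.95% of all genes). No member had every 2-week library above every control (3.37% of all genes).

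Glucocorticoid response genes are given beside this, since Per2 is a known glucocorticoid target. The 5 listed summed to 942 to 1246 CPM in the controls and to 702 to 864 CPM after 2 weeks, without overlap. After 5 weeks they summed to 806 to 1124 CPM. Singly, Fkbp5 (mean 73.8 CPM in controls, 28.3 CPM after 2 weeks) and Zbtb16 (124 and 19.4 CPM) lay wholly below the controls (1.95% of all genes). Klf9 (354 and 278 CPM) and Tsc22d3 (417 and 321 CPM) overlapped, and Sgk1 (122 and 123 CPM) did not fall. After 5 weeks Fkbp5 still lay wholly below the controls (mean 33.8 CPM, 1.36% of all genes). Zbtb16 (83.0 CPM), Klf9 (318 CPM), Tsc22d3 (415 CPM) and Sgk1 (125 CPM) overlapped the controls at 5 weeks. The 4 immediate early genes listed summed to 349.99 to 727 CPM in the controls, 907 to 1608 CPM after 2 weeks and 791 to 1189.7 CPM after 5 weeks. Their part in the clock values was not tested.

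The comparison of 5 weeks with the controls asks about the later state of the model. Again none of the 10 members and none of all genes passed in limma (0.00%). One member, Bhlhe40, had an unadjusted p under 0.05, against 8.63% of all genes, with a log2 difference of -0.20 ± 0.08 (SE, 0.871-fold, limma adjusted p = 0.551). Tef had -0.17 ± 0.08 (0.888-fold, limma adjusted p = 0.587) and was the 1 member whose groups did not overlap (5.01% of all genes), lying below (1.36%). No member lay wholly above the controls (3.65%). Among the members 2 stood higher and 8 lower, against 55.0% and 45.0% of all genes, with a median log2 difference of -0.14 against 0.018. The split was 4 to 6 with library weights and 3 to 7 without 5-week replicate 3, where the differences were -0.11 for Tef and -0.15 for Bhlhe40. B cell markers summed to 104 to 216 CPM in the 5-week libraries and to 55.4 to 94.7 CPM in the controls. NK cell markers summed to 36.9 to 67.5 CPM and to 19.0 to 30.7 CPM, also without overlap. Neutrophil sums overlapped (65.5 to 257 and 31.0 to 120 CPM). The part of these cells in the clock values was not tested.

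The comparison of 5 with 2 weeks asks how the treated lungs changed with time. None of the 10 members and none of all genes passed in limma (0.00%). Per3 alone had an unadjusted p under 0.05 (10.9% of all genes), with a log2 difference of -0.32 ± 0.10 (SE, 0.802-fold, 95% interval -0.54 to -0.10, limma adjusted p = 0.304). It was also the 1 member whose groups did not overlap (4.94% of all genes), lying below (2.56%), and none lay wholly above (2.38%). Leaving out 5-week replicate 3 gave -0.21, and leaving out all 3 libraries that stood apart gave -0.16. With library weights, Per3 passed in limma at an adjusted p of 0.0429, among 881 genes called under that setting, and its limma adjusted p over the other 21 settings ran from 0.103 to 0.693. Among the members 3 stood higher and 7 lower, against 50.2% and 49.8% of all genes, with a median of -0.13 against 0.001.

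**Figure D3:**
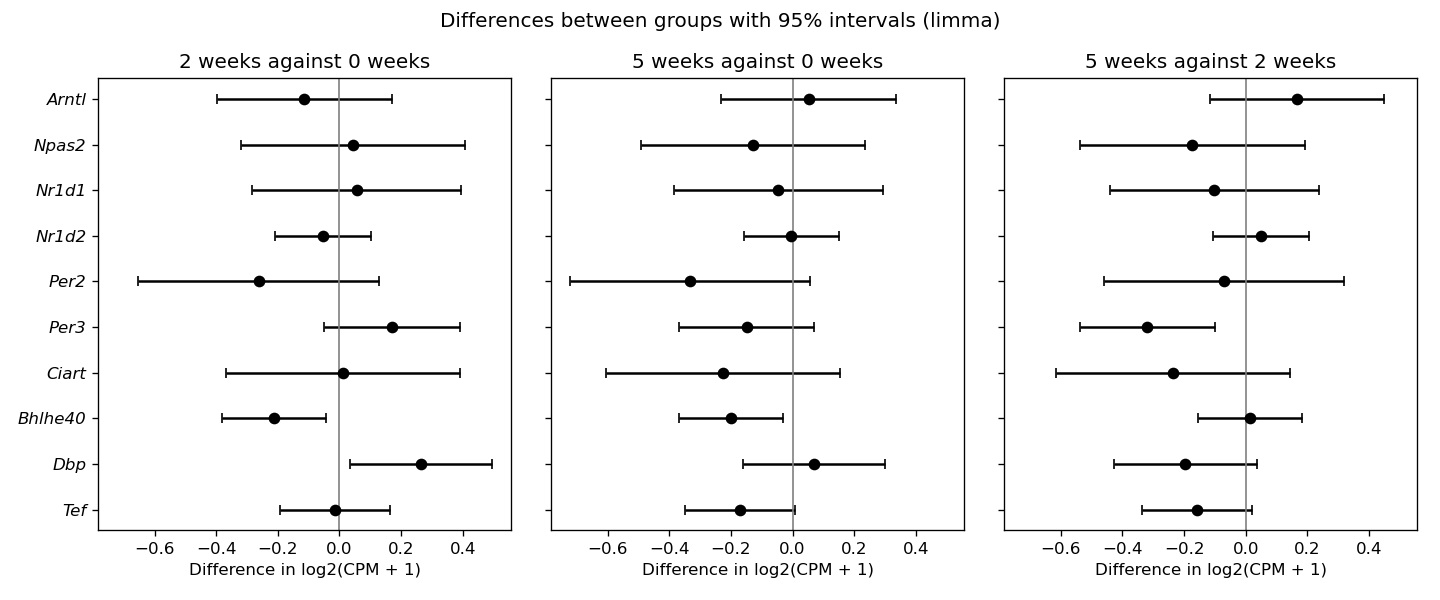
Difference in log2(CPM + 1) of each clock gene in the 3 comparisons, as a point with its 95% limma interval, and a vertical line at 0. Most intervals include 0, those of Bhlhe40 (both comparisons with 0 weeks), Dbp (2 weeks against 0 weeks) and Per3 (5 weeks against 2 weeks) do not, and none passed after adjustment over all genes.

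No member passed in limma's moderated F-test over all 3 groups. The smallest limma adjusted p values were those of Per3 (0.404) and Bhlhe40 (0.42). On the log2(CPM + 1) scale the lowest interval bound of any member was the -0.72 of Per2 at 5 weeks, and for Nr1d2 all 3 intervals lay between -0.21 and 0.20. That scale narrows the intervals of Npas2 and Arntl. With a pseudocount of 0.1, the interval of Npas2 ran from -0.92 to 0.40 at 5 weeks against the controls and from -0.99 to 0.33 at 5 against 2 weeks.

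Single libraries often stood at the extremes. The library 5-week replicate 3 was the lowest of all 12 for 6 of the 10 members (Nr1d1, Per2, Per3, Ciart, Bhlhe40 and Tef) and the highest for Arntl. It was also the lowest for 11 of 20 other clock genes. Over all genes tested it was the lowest library for 24.8% and the highest for 22.1%. It is the library with 11218 CPM of red cell markers, and it had the highest sums of neutrophil (257 CPM), B cell (216 CPM) and NK cell markers (67.5 CPM). In the other 5-week libraries too, the B cell and NK cell sums lay above every control. The part of these cells in the low clock values of 5-week replicate 3 was not tested. In bulk RNA fewer cells of a type and less RNA per cell cannot be told apart. Control replicate 4 was the highest for Per2, Nr1d2 and Bhlhe40 and for 9 of the 20 other clock genes, and the lowest for Dbp. Over all genes tested it was the highest for 16.2% and the lowest for 18.4%. Its marker sums lay within the range of the other libraries for red cells, muscle and fat, apart from a glucocorticoid response sum of 1246 CPM, the highest of the 12.

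**Figure D4:**
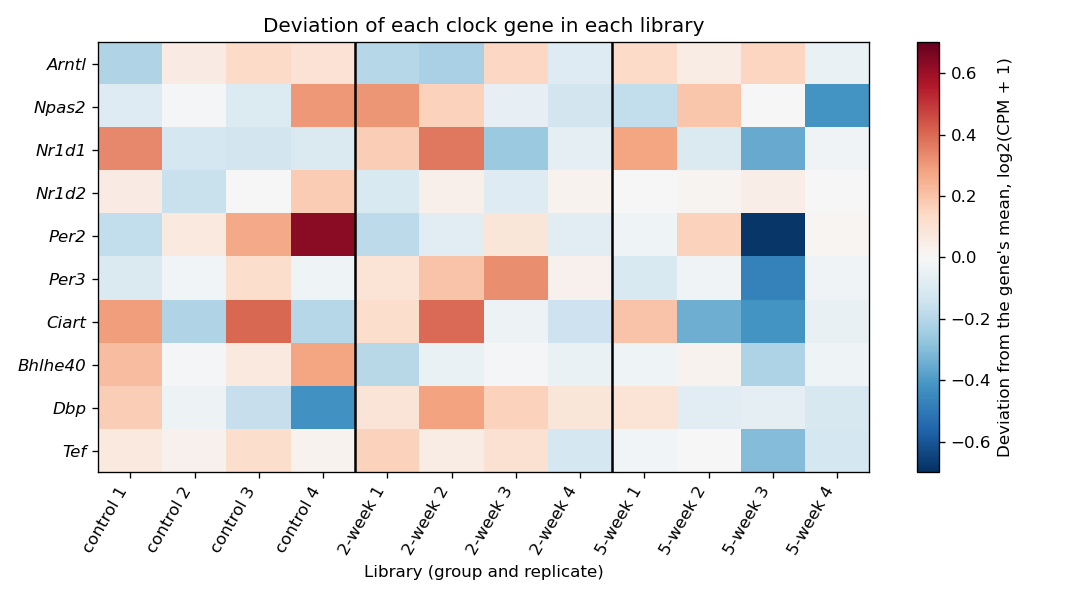
Deviation of each clock gene (rows) in each library (columns) from the gene's mean over 12 libraries, in log2(CPM + 1), with red above and blue below the mean and black lines between groups. Replicate 3 at 5 weeks is blue for Nr1d1, Per2, Per3, Ciart, Bhlhe40 and Tef, and control 4 is red for Per2 and blue for Dbp.

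Ratios between members with different roles varied from library to library, and the ratio to Arntl rests on few reads of that gene. The ratio of Dbp to Arntl CPM, compared between libraries only, ran from 121 in control replicate 4 to 281.5 in 2-week replicate 2. Its medians were 153 in the controls, 225 after 2 weeks and 164 after 5 weeks, and the groups overlapped. The ratio of Dbp to Per2 ran from 1.52 in control replicate 4 to 4.86 in 5-week replicate 3.

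Arntl was lowest in 2-week replicate 2, the library with the highest Nr1d1 (1.48 against 359 CPM), and highest in 5-week replicate 3, the library with the lowest Nr1d1 (2.22 against 218 CPM). Over the 12 libraries Pearson's r on log2(CPM + 1) was -0.72 (permutation p = 0.00975, adjusted 0.0877) and Spearman's rho was -0.83 (permutation p = 0.00152, adjusted 0.0137). The tests were two-sided and were adjusted over 9 relations, Arntl with each other member. Within groups, with values centred on the group mean, r was -0.73. Without the 2 libraries farthest from the median of Arntl, control replicate 1 and 2-week replicate 2, r was -0.45 over 10 libraries, so the strength of the relation rests partly on them. Leaving out 1 library at a time gave r between -0.93 and -0.63. The 5-week replicate 1 was high in both genes. After adjustment the permutation p of Arntl with Nr1d1 was under 0.05 by rho and not by r. Of the other 8 members, Dbp had the lowest r with Arntl (r = -0.54, permutation p adjusted 0.31), and none was under 0.05 by either measure. The cardiac muscle markers of 2-week replicate 2 are the highest of the 12 libraries, as is its sum of immediate early genes, and their part in the relation was not tested. Both values of a pair come from 1 library and share its depth. Arntl rests on few reads, at 1.48 to 2.22 CPM where 1 read is worth about 0.029 to 0.039 CPM. How much of its spread between libraries, and so of this relation, is counting error was not tested.

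**Figure D5:**
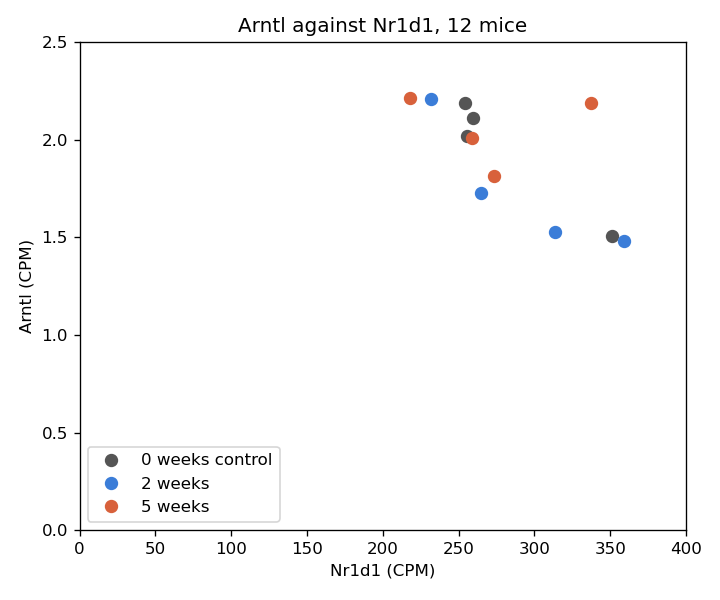
Arntl against Nr1d1, both in CPM on axes from 0, 1 point per mouse, coloured by group. Libraries with more Nr1d1 have less Arntl (r = -0.72 on log2(CPM + 1)), apart from 5-week replicate 1, which has 337 CPM of Nr1d1 and 2.19 CPM of Arntl.

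The genes most like Arntl over the 12 libraries, by Pearson's r on log2(CPM + 1) among all genes tested, were Ube2g2 (r = 0.879), Btbd1 (0.828), Pomgnt2 (0.822), Pigu (0.795) and Atp23 (0.777). Nr1d1 had the 34th lowest r with Arntl of the other 15561 genes. Those most like Dbp were Polm (0.882), Tab1 (0.869), Ntn3 (0.866), Aldh7a1 (0.859) and Acsf2 (0.858). Bhlhe41, which encodes DEC2, the close relative of DEC1, was the 53rd most like Dbp (r = 0.78), while Bhlhe40 had an r of -0.40 with Dbp. These are descriptions over 12 libraries, picked from all genes tested, and those for Arntl rest on its few reads.

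Of the other genes of the pathway, 20 were in the table and 18 passed the filter. None of the 18 passed in limma in any comparison. At 2 weeks 5 stood higher and 13 lower than the controls (55.1% and 44.9% of all genes), with 3 at an unadjusted p under 0.05 (9.24% of all genes). These were Nampt, which encodes an NAD-synthesis enzyme under clock control (log2 difference -0.15, limma adjusted p = 0.437), Nfil3, the repressor at D-boxes (-0.49, adjusted p = 0.44), and the cell-cycle kinase gene Wee1 (-0.28, adjusted p = 0.525). Without 2-week replicate 3 the split was 2 to 16. At 5 weeks 2 stood higher and 16 lower than the controls (55.0% and 45.0% of all genes), with 1 at an unadjusted p under 0.05 (8.63%). The smallest p values were those of the repressor Cry2 (-0.21, limma adjusted p = 0.578), Wee1 (-0.26, 0.587) and Rora, an activator at ROR elements (-0.21, 0.621). Without 5-week replicate 3, the lowest library for 11 of the 20 genes, these differences were -0.10, -0.14 and -0.11, and the split was 3 to 15. Without control replicate 4 the split was 4 to 14, and the difference of Rora was -0.12. Between 5 and 2 weeks 9 stood higher and 9 lower (50.2% and 49.8% of all genes), with 1 at an unadjusted p under 0.05 (10.9%), and without 5-week replicate 3 the split was 12 to 6. Nampt (0.13, limma adjusted p = 0.388), the deubiquitinase gene Usp2 (-0.35, 0.579) and Nfil3 (0.29, 0.595) had the smallest p values. Usp2 stood at 61.5 CPM in 2-week replicate 3, the library with 6509.5 CPM of skeletal muscle markers, and at 25.3 to 42.5 CPM in the other 2-week libraries. Without that library its difference was -0.13, and that of Nfil3 was 0.19. Without 2-week replicate 4 the difference of Usp2 was -0.55 and that of Nfil3 0.44, and without 2-week replicate 1 that of Nfil3 was 0.17. The 2 comparisons with 0 weeks share the same 4 control mice, so their counts are not independent.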

How the data were processed

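RNA from flash-frozen whole lung was sequenced, per the labels' protocols. The authors deposited 1 table of CPM values to which an offset of 0.0001 had been added throughout. Per the submitters' processing notes, the tools were TopHat2 and Partek and the build mm10. The sources used here give no version, annotation, strandedness or filter. Only 501 of 23073 genes matched by identifier to GENCODE M21 share their start with GRCm38, so positions are those of the table, with ends printed as the stop minus 1. Exon lengths came from GENCODE M21 by identifier. Low values lay on steps that give 25900000 to 34000000 reads per library, but only 88.0% to 88.6% of those between 1 and 20 steps were whole within 0.1, so reads were not recovered, no count model was fitted and counting error has no interval here. All libraries differed from each other (Pearson's r across genes 0.9524 to 0.9946 over 66 pairs).

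The scale of analysis was log2(CPM + 1), for genes averaging 1 CPM or more. Group means over 12 libraries were fitted with limma 3.58.1 (R 4.3.3), moderated with a trend on expression. Tests were two-sided, with Benjamini-Hochberg adjustment over all 15562 genes and a threshold of 0.05. Correlations used 100000 resamples. Python 3.11.15 ran with pandas 2.3.3, numpy 2.4.6, matplotlib 3.10.9 and scipy 1.17.1. The fit was run on simulated data with planted differences larger than any of the members and no library standing apart. That run therefore says nothing about differences as small as those of the members. The members, lists and motifs were chosen with earlier results of these data known. The rule names every member, the 3 other clock genes with the smallest p per comparison where none passed, and the 5 genes most like Arntl and Dbp. Genes of the marker lists are summed, and those of the glucocorticoid list are also given singly. Alternatives were scaling by median of ratios or by quantiles, pseudocounts of 0.1 and 5, a filter of 10 CPM or none, robust moderation, library weights, fits of only the groups compared, leaving out each library, and, added after seeing the data, leaving out the 3 libraries that stood apart and the alternatives for single other clock genes. The series also describes a single-cell experiment, which was not analysed here. Mice are separate by their numbers in the labels.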

Additional observations from a re-analysis of the deposited data

Results flagged for a closer look

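Nr1d1, the REV-ERBα gene, stood at 351.5 CPM in control replicate 1, while the other 3 controls lay between 254 and 259 CPM. The gap to the nearest control was 0.949 of the range of the group, above Dixon's critical value for 4 samples. Among the 30 sets of 1 member in 1 group, this was the only one past that value, and chance gives about 1 in 20 such sets. The same library had the lowest Arntl of the controls (1.51 CPM) and the highest Dbp of the controls (386 CPM).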

How the results depend on the processing

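Over 30 differences (10 members in 3 comparisons) and 654 alternatives, 623 kept the direction and the side of the threshold. One passed: with library weights, Per3 between 5 and 2 weeks (-0.25, limma adjusted p = 0.0429), which made the count of passing members 1. In 30 the direction turned, over 11 differences, all of them small, and the cause was not tested. At 2 weeks against 0 weeks, Ciart became -0.01 with median-of-ratios scaling, -0.03 with quantile scaling, -0.04 without the 3 libraries that stood apart and -0.09 to 0.12 when 1 library was left out. Leaving out 1 library gave -0.05 to 0.17 for Nr1d1, -0.05 to 0.04 for Tef (0.01 with library weights) and -0.04 to 0.14 for Npas2. At 5 weeks against 0 weeks, Nr1d1 became 0.02 with library weights and without the 3 libraries, and -0.16 to 0.07 when 1 was left out. Nr1d2 became 0.01 with quantile scaling, 0.001 with library weights and -0.06 to 0.05 when 1 was left out, Arntl -0.02 to 0.09 and Dbp -0.03 to 0.16. At 5 against 2 weeks, Per2 became 0.09 with library weights, 0.16 without the 3 libraries and -0.17 to 0.11 when 1 was left out, Nr1d1 -0.21 to 0.004 and Bhlhe40 -0.03 to 0.06. Centred on group means, the correlations of Arntl with Nr1d2 (-0.13), Per3 (0.19) and Bhlhe40 (-0.08) changed sign. The 9 differences of other clock genes kept their direction and did not pass in 196 alternatives. Arntl and Npas2 did not pass a filter of 10 CPM. Genes called over the whole table numbered 1 in each comparison with 0 weeks without control replicate 1, 18 at 2 weeks with library weights, 24 at 2 weeks without 5-week replicate 3, and 386 between 5 and 2 weeks without 2-week replicate 4, none of them a member. No paired analysis was possible because replicate numbers follow accession order and pair no mice.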
